A study of Bos grunniens with 18 samples.

Results

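The protein components of the ribosome were followed in yak (Bos grunniens) whole blood at 3 reproductive stages. Members were all rows of the authors' gene table whose KEGG annotation names the ribosome pathway. There were 308 such rows among 20607 genes, and the 242 with at least 10 counts in at least 6 of the 18 libraries were kept. The other 66 rows fell under that limit. The 242 kept rows comprised 179 of the cytosolic ribosome, 29 carrying MRP names (mitochondrial ribosomal proteins), 15 unnamed rows placed in ortholog groups of mitochondrial or bacterial type, and 19 other loci that carry the ribosome annotation although they are named as something else or as nothing.

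The libraries were made from adult female yaks. There were 6 libraries of anestrus (the Y-A group), 6 of estrus (Y-E) and 6 of pregnancy (Y-P). According to the methods, blood of the same 6 cows was collected in EDTA with TRIzol LS, so the RNA came from every blood cell at once. The sample labels do not say that replicate numbers mark cows. The main tests therefore have no term for the cow and treat the 18 libraries as independent. Estrus was brought on with a progesterone pessary, a prostaglandin analogue and gonadotropin-releasing hormone, followed by timed insemination, and these agents are therefore part of the passage from Y-A to Y-P. Polyadenylated RNA was sequenced with a kit that marks the strand. In such bulk samples, fewer cells of a type and less RNA per cell cannot be told apart.

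Cytosolic ribosomes translate the messenger RNAs of the nucleus and are built from ribosomal RNA and a fixed set of proteins in a large and a small subunit. The messenger RNAs of those proteins begin with a terminal oligopyrimidine (TOP) tract, through which the kinase complex mTORC1 and the RNA-binding protein LARP1 govern their translation and stability as a group. Mitochondrial ribosomes are separate particles that make a few subunits of the respiratory chain, and all of their proteins are encoded in the nucleus, mostly by MRPL and MRPS genes. In blood, lymphocytes are rich in messenger RNAs of cytosolic ribosomal proteins, neutrophils are poor in them, and reticulocytes lose their ribosomes as they mature. Partial loss of single ribosomal proteins causes Diamond-Blackfan anemia, in which red cell production fails.

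The table lists many near-identical copies, so the cytosolic rows were separated by level. In each KEGG ortholog group, the row with the highest mean FPKM (fragments normalised to exon length and sequencing depth) is called the leading row here. The 75 leading rows, 45 of the large and 30 of the small subunit, held 93.6% of all cytosolic counts. The table gives no gene symbol for 26 of them, and such a row is named below by its ortholog group, as in "the RPL5 group". The 104 further rows lay in 47 groups, with up to 6 in a group, and 12 of them were annotated as pseudogenes. Reads that fit several copies may have been split among them, so the values of further rows are uncertain. Of the leading rows, 19 overlapped the gene of a small nucleolar RNA, which many ribosomal protein genes carry in their introns.

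Levels between genes were compared in FPKM, the unit that accounts for length. The leading rows had a median of 569 FPKM and ranged from 1.03 to 1940, against a median of 7.78 over all genes tested. FPKM exceeded 500 in 44 of the 75 and stayed under 100 in 7, and 35 of the 100 genes of highest FPKM were leading rows. Among the highest were the RPLP1 group (1940 FPKM), an acidic protein of the large subunit's stalk, RPS2 (1905), the RPS3A group (1596) and RPS24 (1541), a protein mutated in Diamond-Blackfan anemia. At the other end stood RPL3L (0.203 FPKM), the striated muscle form of RPL3, and further rows of the RPL7 group (ENSBGRG00000026650, 0.311) and the RPS15A group (ENSBGRG00000013699, 0.381). Further rows had a median of 7.89 FPKM, and 60 of the 104 lay under 10.

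The 29 mitochondrial members had a median of 9.39 FPKM, close to the median gene, and ranged from 3.24 to 45.7. MRPS10 (45.7 FPKM), MRPS6 (36.9), MRPL34 (28.8), MRPL28 (24.7) and MRPL12 (21.9) were highest, the last of these also known to bind the mitochondrial RNA polymerase. MRPL32 (4.44 FPKM), MRPL36 (3.94) and MRPS18C (3.24) were lowest. Per length, the median mitochondrial member thus stood far below the median leading row.

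Libraries held 30247267 to 48401076 counts. Over 9266 genes that are not members and had at least 100 counts in every library, the deposited count (as a share of the library total) was divided by the deposited FPKM and by its median across libraries. This ratio was almost the same for every gene of a library but fell into 2 ranges across libraries, 0.920 to 0.940 in 6 and 0.986 to 1.05 in 12, and the gap of 0.0460 between them exceeded the next widest gap of 0.0284. The lower ratio occurred in Y-A replicate 6, Y-E replicate 6 and 4 pregnancy libraries (Y-P replicates 1, 4, 5 and 6), and the labels name no batch. Lower and higher ratio describe the deposited values and are not groups of the study. What sets them apart was not tested, and the division was chosen after seeing the data. Since 4 of 6 Y-P but only 1 of 6 Y-A and 1 of 6 Y-E libraries had the lower ratio, each stage result is given without and with a term for it. Hemoglobin genes held between 3.10% and 16.7% of the counts of a Y-A library, between 0.0899% and 8.36% for Y-E and between 0.0272% and 0.376% for Y-P. The 16.7% and the 8.36% were those of Y-A replicate 6 and Y-E replicate 6, and every other Y-E library held at most 0.713%.

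The leading rows together accounted for between 2.56% and 4.92% of all counts among Y-A libraries (median 4.42%), between 2.63% and 4.39% among Y-E libraries (median 3.75%) and between 3.37% and 8.42% among Y-P libraries (median 5.03%). Pregnancy thus held the highest libraries, Y-P replicate 3 (8.42%), replicate 2 (7.74%) and replicate 5 (6.06%), but its other 3 libraries lay among those of Y-A and Y-E, so the stages overlapped. The lowest shares were those of Y-A replicate 6 (2.56%) and Y-E replicate 6 (2.63%), which both had the lower ratio. With the hemoglobin counts left out of the total, the median share of all 179 cytosolic rows was 5.04% for Y-A, 4.03% for Y-E and 5.34% for Y-P. The order of the stages was then the same, with a smaller distance between Y-A and Y-P.

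The 29 mitochondrial members accounted for between 0.0385% and 0.0555% of all counts among Y-A libraries (median 0.0454%), between 0.0434% and 0.0519% among Y-E libraries (median 0.0453%) and between 0.0481% and 0.0714% among Y-P libraries (median 0.0587%). The same 3 pregnancy libraries were highest, and the ranges of the 3 stages overlapped. The plot of shares by library shows both ribosomes.

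**Figure D1:**
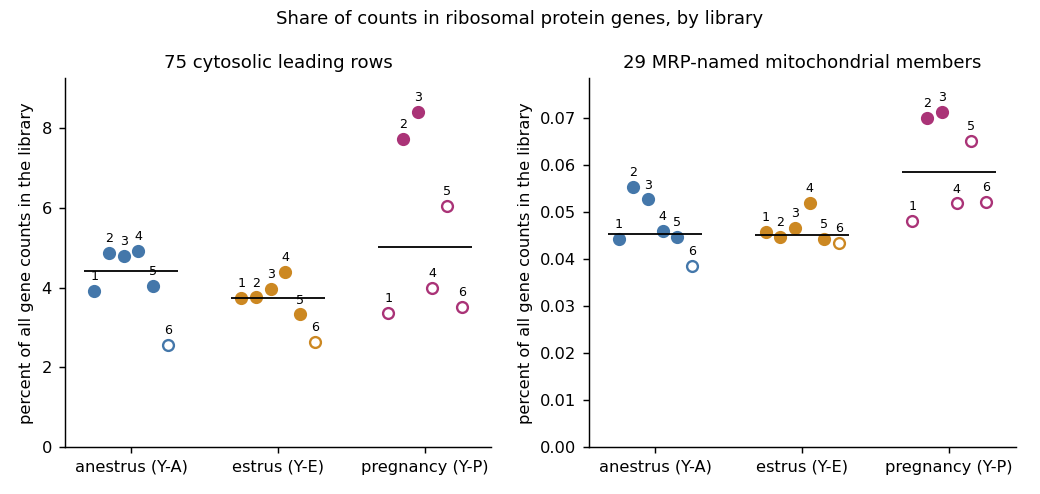
Percent of all gene counts of a library in the 75 cytosolic leading rows (left) and in the 29 MRP-named mitochondrial members (right), by stage; numbers are replicates, open points are libraries of the lower count-to-FPKM ratio and lines are medians. Y-P replicates 2, 3 and 5 stand above every Y-A and Y-E library in the left panel, at 7.74%, 8.42% and 6.06%.

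Rows of the cytosolic ribosome moved together from library to library. Y-P replicate 3 had the highest CPM (counts scaled to library size after TMM normalization) of the 18 libraries in 56 of the 75 leading rows, Y-P replicate 2 in 11 and Y-P replicate 5 in 5. Y-E replicate 6 was among the lowest 6 libraries in 72 leading rows, Y-A replicate 6 in 71, Y-P replicate 1 in 64, Y-P replicate 6 in 56 and Y-P replicate 4 in 49. These 5 libraries had the lower ratio. Next came Y-E replicate 5, of the higher ratio, in 40 leading rows, while Y-P replicate 5, also of the lower ratio, was among the lowest 6 in 29. The spread within a stage was widest in pregnancy, where the median SD of a leading row on the log2 scale was 0.84, against 0.49 in Y-A and 0.39 in Y-E. For the mitochondrial members it was 0.40 in Y-P and 0.26 in both other stages, and over all genes tested it lay between 0.29 and 0.34.

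**Figure D2:**
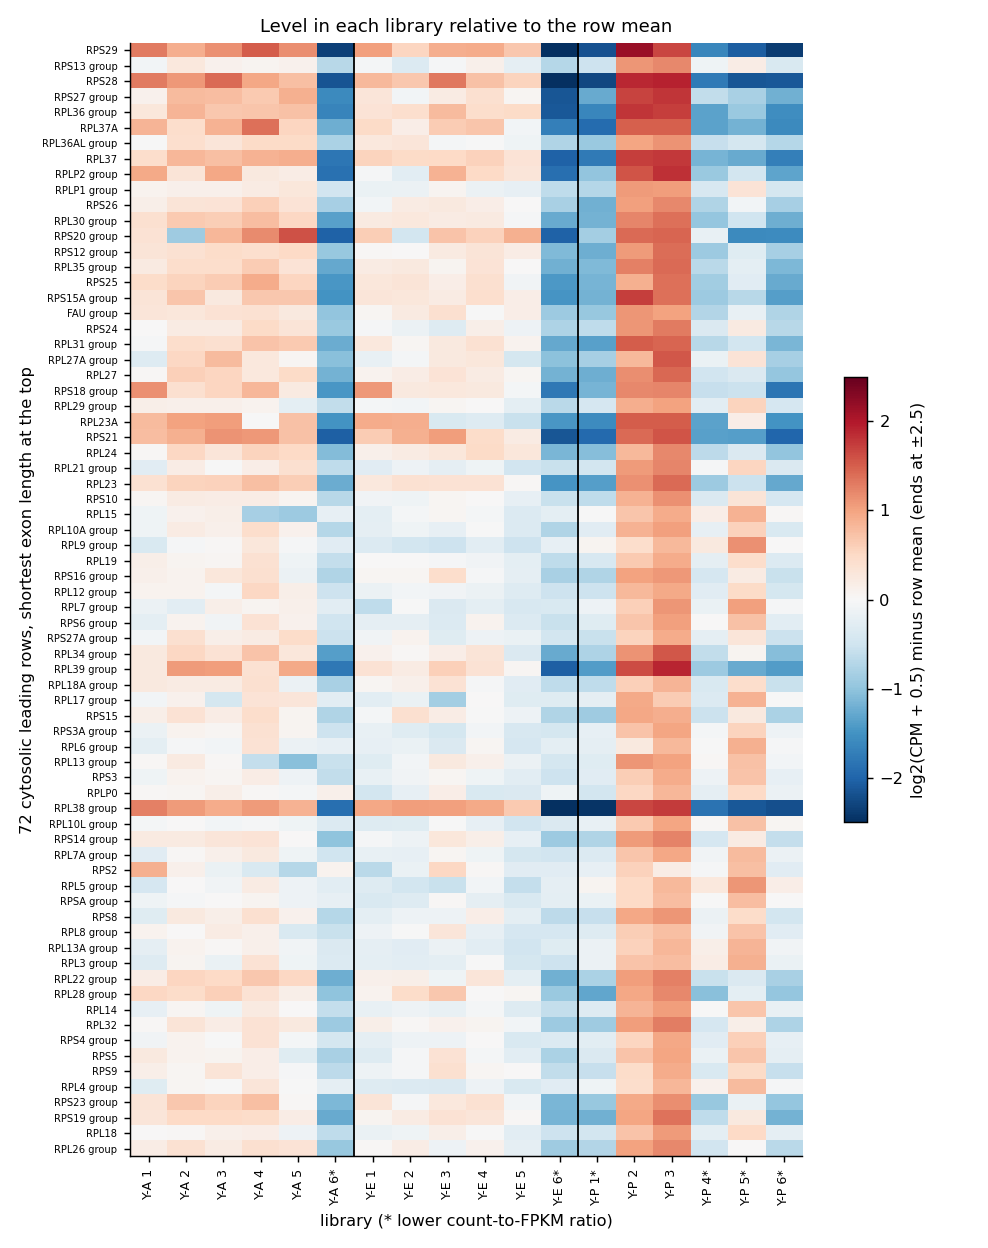
Level in each library of 72 of the 74 cytosolic leading rows with at least 10 counts in all 18 libraries, as log2(CPM + 0.5) minus the mean of the row, with short rows at the top; asterisks mark libraries of the lower count-to-FPKM ratio. Y-P replicates 2 and 3 are above the row mean almost throughout, and the starred columns are lowest in the upper part, where the rows are 203 to 565 bases long.

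The shortest leading rows differed most between the 2 kinds of library. In a fit with terms for stage and for the ratio, 63 of 75 leading rows were lower in the 6 libraries of the lower ratio and 0 were higher, against backgrounds of 9.85% lower and 10.4% higher among all genes tested (edgeR quasi-likelihood test, adjusted p under 0.05). Their median log2 difference was −1.19, with 0 of 75 above 0 and 65 at an unadjusted p under 0.05. In 28 of the 75, all 6 libraries of the lower ratio lay below all 12 others, against 2.09% of all genes tested. The rows were grouped by the exon length implied by the deposited counts and FPKM. The 25 shortest of 74 (203 to 565 bases) had a median of −1.93, and all 25 passed the test. The 24 of middle length (567 to 1179 bases) had a median of −0.78 with 19 called, and the 25 longest (1179 to 5179 bases) −0.73 with 18 called. Other genes of the same 3 length ranges had medians of −0.42 (665 genes), −0.11 (1550 genes) and 0.03 (10059 genes). Spearman's rho between length and this log2 difference was 0.56 over the 74 rows, which share their libraries.

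RPS29, RPS28 and the RPL38 group, small proteins of the small, small and large subunit, are given as examples chosen after their values were seen. RPS29 ranged from 117 to 359 CPM (median 171) in the 12 libraries of the higher ratio and from 7.49 to 25.6 CPM (median 16.4) in the 6 of the lower ratio. RPS28 ranged from 125 to 321 CPM (median 174) in the former and from 10.6 to 24.5 CPM (median 18.7) in the latter. The RPL38 group ranged from 120 to 257 CPM (median 156) against 11.3 to 20.8 CPM (median 16.7). In each of the 3, the ranges stood apart in every stage. The log2 differences were −3.95, −3.76 and −3.56 in the fit with both terms. RPLP0, a long row, differed little by comparison, with 1060 to 2594 CPM (median 1480) against 1052 to 2040 CPM (median 1329).

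**Figure D3:**
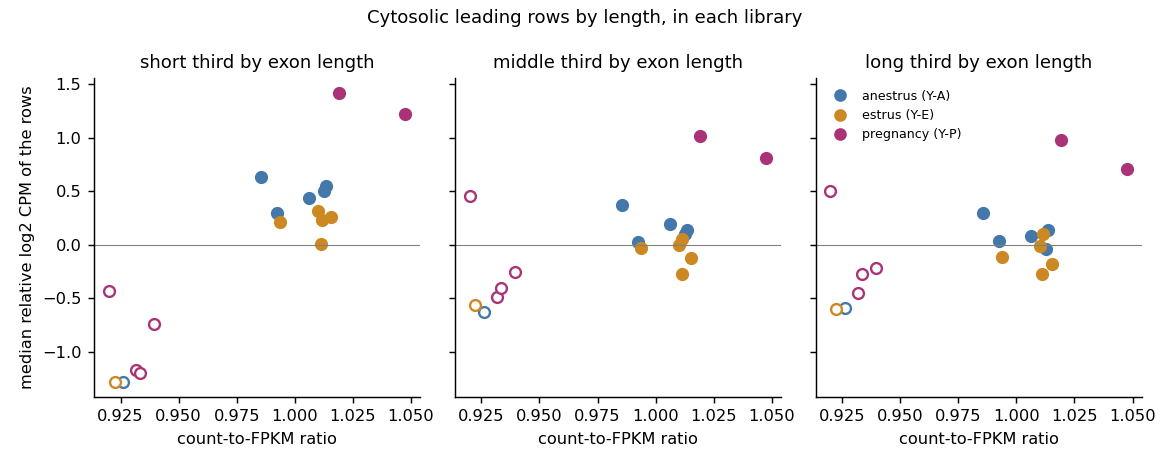
Median relative log2 CPM of the short (203 to 565 bases), middle (567 to 1179) and long (1179 to 5179) leading rows in each library against the library's count-to-FPKM ratio; colours are stages and open points the lower ratio. The 6 open points lie lowest in the left panel, and in every panel Y-P replicates 2 and 3 are the highest points.

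Estrus was compared with anestrus to ask whether the ribosome changed as cows entered cycling. No member of either ribosome was called. For the 75 leading rows, edgeR gave 0 calls in either direction and 0 rows at an unadjusted p under 0.05, against a background of 0.0% higher and 0.0207% lower among 14508 genes, and DESeq2 also gave 0. The log2 fold change was above 0 in 2 of the 75, with a median of −0.23 beside −0.01 over all genes. The 29 mitochondrial members had 0 calls, 0 at an unadjusted p under 0.05 and a median of −0.07. With the ratio term the leading rows again had 0 calls (11 at an unadjusted p under 0.05) and a median of −0.21. Leaving out single libraries from the fit with stage alone put the leading median between −0.37 when Y-A replicate 6 was dropped and −0.11 when it was Y-E replicate 6. The mitochondrial median lay between −0.13 when Y-A replicate 6 was dropped and −0.011 when it was Y-A replicate 3.

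The 2 cytosolic members of smallest p in that comparison were a further row of the FAU group (ENSBGRG00000019195, log2 fold change −8.39 ± 2.52 SE, adjusted p = 0.439) and the RPL9 group's leading row (−0.33 ± 0.17, adjusted p = 0.853, edgeR). The former is a barely detected row, at 0 to 2.30 CPM in Y-A, 0 in all Y-E libraries and 0 to 3.16 CPM in Y-P, so its fitted fold depends on the prior count. MRPS5 (−0.27 ± 0.14, adjusted p = 0.871) and MRPL18 (−0.28 ± 0.16, adjusted p = 0.898) led the mitochondrial members.

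Pregnancy against estrus gave the most calls, all upward among leading rows. Of the 75, 14 (18.7%) were higher in Y-P and 0 lower in edgeR's quasi-likelihood test, against backgrounds of 5.77% higher and 8.68% lower over 14508 genes. At an unadjusted p under 0.05 there were 27. The median log2 fold change was 0.41 beside 0.04 over all genes, 67 of 75 were above 0, and 0 of the 14 passed 2-fold (background 2.67%). Entering the replicate number, taken as the cow, as a block gave a median of 0.28 with 58 rows above 0. Leaving out Y-E replicate 6 from the fit with stage alone gave 0.30 and 59. By subunit, 11 of 45 large subunit rows (median 0.45) and 3 of 30 small subunit rows (median 0.30) were called. The rows that rose encode proteins assembled at different places of the large subunit, among them the RPL5, RPL4, RPL3, RPL13A, RPL7, RPL6, RPL14, RPL17, RPL9, RPL15 and RPL10 groups, and in the small subunit the RPSA, RPS3A and RPS6 groups. Called rows were mid-length or long: 0 of the 25 shortest, 7 of 24 in the middle and 7 of the 25 longest.

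The RPL5 group's row (ENSBGRG00000001137, chromosome 3, 55098033 to 55110810, minus strand in the authors' table) changed most clearly. RPL5 joins RPL11 and 5S ribosomal RNA in a particle that also restrains the p53 ligase MDM2. It ranged from 615 to 951 CPM in Y-A (median 764), from 543 to 785 in Y-E (median 628) and, for Y-P, from 867 to 1775 (median 1081). All 6 pregnancy libraries lay above all 6 of estrus, and only Y-P replicates 1 and 6 lay within the range of anestrus. The log2 fold change was 0.90 ± 0.17 (SE, n = 6 per stage, edgeR adjusted p = 0.00198) against Y-E and 0.64 ± 0.17 (adjusted p = 0.0305) against Y-A.

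The RPL9 group's row (ENSBGRG00000003539) ranged from 315 to 501 CPM in Y-A (median 400), from 286 to 357 in Y-E (median 311) and, for Y-P, from 410 to 900 (median 518). Pregnancy again lay wholly above estrus, and overlapped anestrus. The change was 0.89 ± 0.17 on the log2 scale (edgeR adjusted p = 0.00252) against Y-E and 0.56 ± 0.17 (adjusted p = 0.0565) against Y-A. The RPL4 group's row spanned 1190 to 1790 CPM in Y-A (median 1441), 1117 to 1342 in Y-E (median 1159) and 1349 to 2602 in Y-P (median 1781), with a log2 fold change of 0.69 ± 0.16 (adjusted p = 0.00700) against Y-E. The RPL13A group's row spanned 954 to 1327 CPM in Y-A (median 1197), 878 to 1103 in Y-E (median 1008) and 1106 to 2206 in Y-P (median 1588), with 0.70 ± 0.16 (adjusted p = 0.00775). RPL13A also serves outside the ribosome, in the interferon-gamma activated inhibitor of translation. These 4 rows (the RPL5, RPL9, RPL4 and RPL13A groups) were the leading rows in which every Y-P library exceeded every Y-E library, 4 of 75 against 2.19% of all genes tested.

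The row of the RPL10 group that the table describes as RPL10L completed the 5 of smallest p, at 934 to 1191 CPM in Y-A (median 1145), 853 to 1184 in Y-E (median 961) and 1048 to 2342 in Y-P (median 1546). It lies on the X chromosome, and RPL10L itself is the retrocopy known from testis, so the description may not fit the locus. Against Y-E it rose by 0.71 ± 0.17 on the log2 scale (edgeR adjusted p = 0.00841). The other 9 rows called against Y-E had log2 fold changes from 0.56 (RPL6 group, adjusted p = 0.0394) to 0.82 (RPL7 group, adjusted p = 0.0122).

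Pregnancy against anestrus gave fewer calls. Of the 75 leading rows, 2 (2.67%) were higher and 0 lower in edgeR's test, against backgrounds of 2.22% higher and 3.61% lower, so the share called was near the background. The rows were the RPL5 group and RPL15, and 15 passed an unadjusted p under 0.05. The median was 0.16 beside 0.03 over all genes, and 53 of 75 were above 0. Once the replicate number entered as a block, the median came to 0.09 and 43 were above 0. In 0 of the 75 did every Y-P library exceed every Y-A library, against 1.23% of all genes tested. RPL15, a large subunit protein mutated in Diamond-Blackfan anemia, spanned 400 to 827 CPM in Y-A (median 671), 590 to 781 in Y-E (median 681) and 750 to 1424 in Y-P (median 1026). Of the 6 pregnancy libraries, 4 lay above all libraries of both other stages. Its log2 fold change was 0.75 ± 0.20 (adjusted p = 0.0355) against Y-A and 0.64 ± 0.20 (adjusted p = 0.0385) against Y-E.

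These counts leaned on single libraries. The median of the leading rows against Y-E lay between 0.10 when Y-P replicate 3 was dropped and 0.54 when it was Y-P replicate 1, and dropping Y-P replicate 2 gave 0.23. Against Y-A it lay between −0.08 when Y-P replicate 3 was dropped and 0.32 when it was Y-P replicate 6. Dropping Y-P replicate 2 gave 0.04 there, Y-A replicate 6 gave 0.07, and Y-P replicates 1 and 4 gave 0.30 and 0.28. The calls against Y-E were 8 without any of Y-E replicates 3 and 5 or Y-P replicates 2 and 3, 9 without any of Y-E replicates 1, 2 and 6 or Y-P replicate 5, and 20 once Y-P replicate 1 was left out. Against Y-A they came to 0 when any of Y-A replicates 1, 5 and 6 or Y-P replicates 2, 3 and 5 was left out, while leaving out Y-P replicate 1 gave 8 and Y-P replicate 6 gave 5. Scaled by library size alone, 21 leading rows rose against Y-E and 10 against Y-A, but the median of all genes then stood at 0.18 and 0.19. Among all genes, this scaling gave 1795 higher and 758 lower calls against Y-E, where TMM gave 837 and 1259, and 1075 higher and 258 lower calls against Y-A, where TMM gave 322 and 524.

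With the ratio term, many more cytosolic rows rose in pregnancy. Against Y-E, 71 of 75 leading rows were higher and 0 lower (background 11.0% higher and 12.5% lower), with a median of 0.85 and 9 past 2-fold (background 4.38%). Against Y-A, 55 were higher and 0 lower (background 7.97% higher and 9.66% lower), with a median of 0.63. The medians by subunit were 0.86 (large) and 0.82 (small) against Y-E, and their difference was not tested. The rows that did not pass against Y-E included RPS2 (0.39, adjusted p = 0.332), the RPS20 group (1.27, adjusted p = 0.0540) and the RPL35A group (1.32, adjusted p = 0.181). The short rows were no longer behind: the 25 shortest had a median of 0.92 against Y-E with 24 called, the 24 middle 0.79 with 24 called and the 25 longest 0.84 with 23 called. RPS29 shows the size of the difference between the fits, at −0.06 ± 0.80 SE without and 1.12 ± 0.16 with the term. The count with the replicate number as a block beside the ratio term was 57 against Y-E and 10 against Y-A. No share over all genes is given here for that fit, so this count is not read as particular to these rows. Leaving out each library in turn from the fit with the ratio term gave 57 to 72 and 31 to 63. Against Y-A the 31 came from leaving out Y-P replicate 3, and leaving out Y-P replicate 2 gave 35.

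Within the 12 libraries of the higher ratio, pregnancy was represented only by Y-P replicates 2 and 3. There, 71 leading rows were higher against Y-E (median 1.06, background 8.21% higher) and 62 against Y-A (median 0.76, background 5.31% higher). Both pregnancy libraries exceeded all 5 estrus libraries in 73 of 75 rows (background 18.3%) and all 5 anestrus libraries in 69 (background 15.5%). Within the 6 libraries of the lower ratio, with 4 of Y-P and 1 each of Y-A and Y-E, edgeR called 0 rows (background 0.0127% higher against Y-E and 0.0764% against Y-A), and the lone libraries were assumed to vary like those of Y-P. The medians there were 0.52 against Y-E and 0.51 against Y-A, each set against a single library (Y-E replicate 6 and Y-A replicate 6) whose share of leading rows was among the lowest 2 of all 18. The calls among libraries of the higher ratio rested on Y-P replicates 2 and 3.

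**Figure D4:**
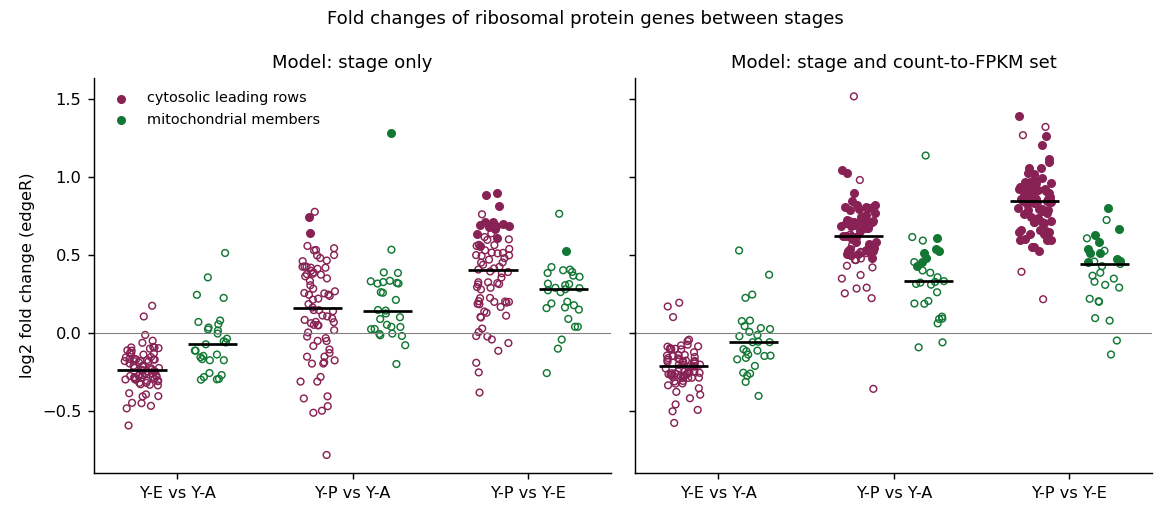
Log2 fold changes of the 75 cytosolic leading rows and the 29 mitochondrial members in the 3 comparisons, from the fit with stage alone (left) and with stage and count-to-FPKM ratio (right); filled points passed an adjusted p under 0.05 and bars are medians. For the leading rows in Y-P vs Y-E the median is 0.41 on the left and 0.85 on the right, while Y-E vs Y-A stays near −0.2 in both.

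The stalk proteins RPLP0, RPLP1 and RPLP2 form the flexible arm of the large subunit that recruits elongation factors. RPLP0 ranged from 1403 to 1612 CPM in Y-A (median 1496), from 1060 to 1620 in Y-E (median 1199) and, for Y-P, from 1052 to 2594 (median 1679). The stages overlapped fully, and against Y-E its log2 fold change was 0.45 ± 0.18 (edgeR adjusted p = 0.0987), or 0.55 ± 0.18 (adjusted p = 0.0339) with the ratio term. The RPLP1 group ranged from 527 to 903 CPM in Y-A (median 805), from 474 to 776 in Y-E (median 661) and, for Y-P, from 451 to 1541 (median 745), with 0.52 ± 0.26 (adjusted p = 0.203) and 0.84 ± 0.17 (adjusted p = 0.00179). Per length, the RPLP2 group stood at 100.5 FPKM beside 1206 for RPLP0 and 1940 for the RPLP1 group. Its levels were 8.43 to 63.0 CPM in Y-A (median 39.2), 8.29 to 58.8 in Y-E (median 35.4) and 12.5 to 114 in Y-P (median 19.8). Within Y-P it parted into replicates 2 and 3 at 95.7 and 114 CPM and the other 4 at 12.5 to 23 CPM. Its log2 fold change against Y-E was 0.41 ± 0.57 (adjusted p = 0.689) without and 1.26 ± 0.22 (adjusted p = 0.000768) with the ratio term.

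Some ribosomal proteins are made in fusion with ubiquitin, as from RPS27A, or with the ubiquitin-like FUBI, as from FAU (with RPS30). The RPS27A group (0.36 ± 0.23, adjusted p = 0.320 against Y-E) and the FAU group (0.13 ± 0.34, adjusted p = 0.844) were not called, and with the term they were at 0.65 (adjusted p = 0.00748) and 0.65 (adjusted p = 0.00230).

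Of the paralogs, RPL3L, RSL24D1, a biogenesis factor related to RPL24, and the RPL36A-like rows had no call in the fit with stage alone. RSL24D1 ranged from 16.5 to 29.1 CPM in Y-A (median 25.2), from 19.3 to 28.3 in Y-E (median 20.6) and, for Y-P, from 17 to 32.3 (median 20.3), with log2 fold changes of −0.09 ± 0.18 against Y-A and 0.02 ± 0.18 against Y-E. RPL3L stayed at or below 2.53 CPM in every library. A pair of neighbouring RPL36AL-described rows on chromosome 11, ENSBGRG00000015893 and ENSBGRG00000015836, had nearly the same values, with highest levels of 41.4 and 42.4 CPM in Y-A and 64.4 and 64.3 CPM in Y-P. They may count the same reads, and their log2 fold changes against Y-A were −0.05 ± 0.34 and −0.03 ± 0.33.

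**Figure D5:**
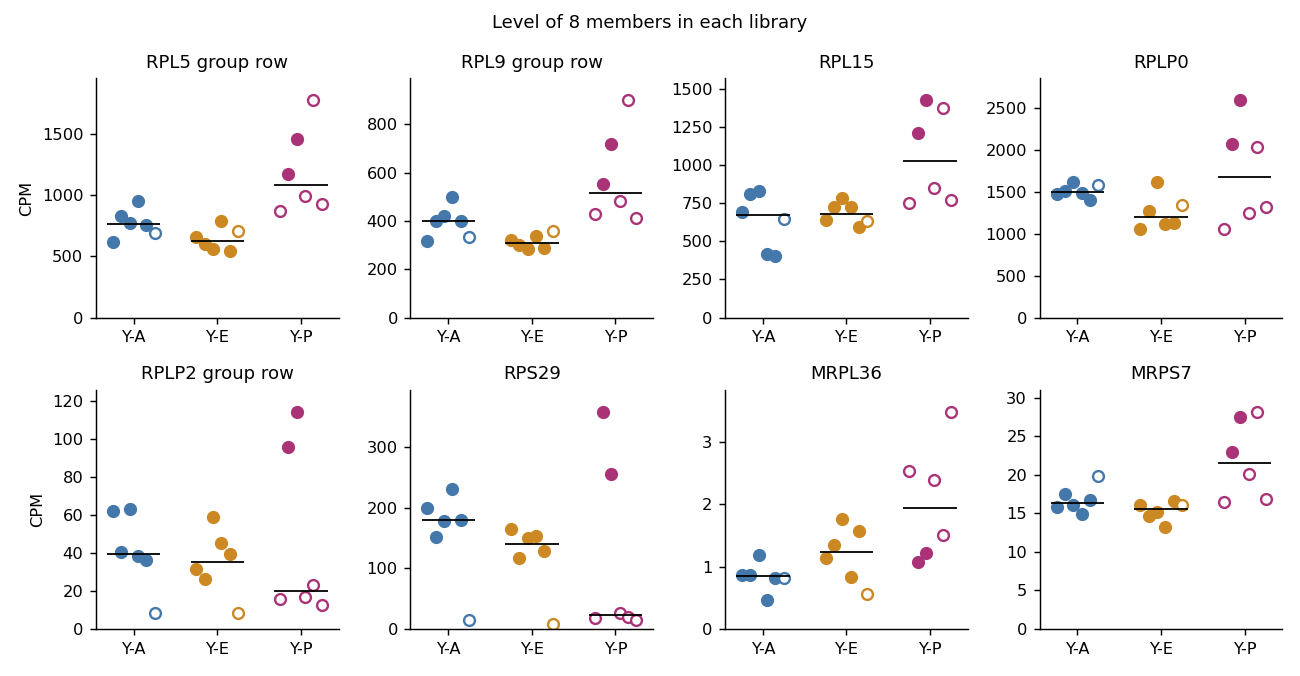
CPM of 8 members in each library by stage; open points are libraries of the lower count-to-FPKM ratio and lines are medians. The RPL5 and RPL9 group rows show all Y-P libraries above all Y-E libraries, while for the RPLP2 group and RPS29 the open and filled Y-P points stand apart, at 12.5 to 23 against 95.7 and 114 CPM for the former.

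Among the further cytosolic rows, 10 of 103 tested were higher and 2 lower in Y-P than in Y-E (edgeR, background 5.77% higher and 8.68% lower). Against Y-A, 3 were higher and 1 lower (background 2.22% and 3.61%), a share of higher rows near the background. Of those that rose, several belong to groups whose leading row rose as well. A second row of the RPS3A ortholog group (ENSBGRG00000013035) ranged from 41.5 to 63.1 CPM in Y-A (median 55.0), from 33.6 to 56.9 in Y-E (median 42.0) and, for Y-P, from 57.0 to 117 (median 80.2), so that pregnancy lay above estrus throughout. Its log2 fold change was 0.93 ± 0.18 (adjusted p = 0.00225) against Y-E and 0.60 ± 0.17 (adjusted p = 0.0474) against Y-A. A second row of the RPL5 group (ENSBGRG00000005768) was at 0.88 ± 0.18 (adjusted p = 0.00351) and a second row of the RPL9 group (ENSBGRG00000025928) at 0.71 ± 0.16 (adjusted p = 0.00690), both against Y-E. Since such copies may share reads with their leading rows, they are no separate evidence.

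Further rows also held the calls that were lower. Among the higher ones, a low RPL9 group row (ENSBGRG00000022832) stood at 0.98 ± 0.28 on the log2 scale (adjusted p = 0.0442) against Y-A. A row of the RPS25 ortholog group (ENSBGRG00000009225) was lower, at 1.38 to 3.05 CPM in Y-P (median 2.2) against 3.14 to 5.68 in Y-A (median 3.88) and 2.5 to 5.03 in Y-E (median 3.93). All pregnancy libraries lay below all anestrus libraries, at −0.90 ± 0.23 (adjusted p = 0.0279) against Y-A and −0.80 ± 0.23 (adjusted p = 0.0234) against Y-E. A row of the RPL17 group (ENSBGRG00000005668) fell against Y-E by 0.80 on the log2 scale (adjusted p = 0.0376), from a median of 4.66 to 2.51 CPM. With the ratio term, 39 further rows were higher and 3 lower against Y-E (background 11.0% and 12.5%).

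In Y-P, 1 of the 29 mitochondrial members (3.45%) was higher than in Y-A and 1 higher than in Y-E, beside backgrounds of 2.22% and 5.77% over all genes, so the shares called were near the background. In either comparison 0 were lower (background 3.61% and 8.68%), and 5 and 7 had an unadjusted p under 0.05. The medians were 0.15 and 0.28, and 23 and 26 of 29 were above 0. Leaving out single libraries put the median against Y-A between 0.012 and 0.24 and that against Y-E between 0.17 and 0.35, the lower ends when Y-P replicate 3 and the upper ends when Y-P replicate 1 was dropped. MRPL36, a small protein of the large subunit, ranged from 0.470 to 1.18 CPM in Y-A (median 0.842), from 0.553 to 1.76 in Y-E (median 1.24) and, for Y-P, from 1.08 to 3.49 (median 1.95). Only Y-P replicate 2 lay within the range of anestrus, and Y-P replicates 2 and 3, the highest in most leading rows, were the lowest pregnancy libraries here. The row is weak, with 14 to 40 counts in Y-A. Its log2 fold change against Y-A was 1.28 ± 0.36 (edgeR adjusted p = 0.0429), and the call was lost with the replicate block (adjusted p = 0.0587) and with the ratio term (1.14, adjusted p = 0.0856).

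MRPS7, a small subunit protein that binds the mitochondrial ribosomal RNA, ranged from 14.9 to 19.9 CPM in Y-A (median 16.4), from 13.3 to 16.6 in Y-E (median 15.6) and, for Y-P, from 16.5 to 28.2 (median 21.6). Nearly all pregnancy libraries lay above estrus. Its log2 fold change against Y-E was 0.53 ± 0.14 (adjusted p = 0.0154), and 0.54 ± 0.15 (adjusted p = 0.0130) with the ratio term. The 5 mitochondrial members of highest FPKM were not called in any comparison of the fit with stage alone: against Y-E, MRPS10 had a log2 fold change of 0.20 ± 0.10, MRPS6 −0.25 ± 0.18, MRPL34 0.18 ± 0.19, MRPL28 0.37 ± 0.17 and MRPL12 0.04 ± 0.24. The last of these, MRPL12, spanned 9.07 to 25.3 CPM in Y-P, the widest range of its stages.

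With the ratio term, 10 of 29 mitochondrial members were higher in Y-P than in Y-E (median 0.44, background 11.0%) and 7 higher than in Y-A (median 0.33, background 7.97%), and 0 were lower (background 12.5% and 9.66%). MRPL20 (0.63, adjusted p = 0.00420), MRPL28 (0.58, adjusted p = 0.00788), MRPS9 (0.51, adjusted p = 0.0105) and MRPL2 (0.67, adjusted p = 0.0109) led against Y-E, all named after their values in this fit were seen. Leaving out single libraries gave 3 to 14 calls against Y-E and 0 to 9 against Y-A in that fit, with 0 against Y-A without either Y-P replicate 2 or replicate 3, and 6 and 3 against Y-E. The mitochondrial members differed less between the kinds of library than the leading rows did: 10 of 29 were lower and 1 (MRPL3) higher in the libraries of the lower ratio, with a median of −0.35.

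Of the 15 unnamed rows of mitochondrial or bacterial type, 1 was higher in Y-P than in Y-E (ENSBGRG00000002612, 0.58, adjusted p = 0.0136) and 0 were lower, with a median of 0.27 (background 5.77% higher). Of the 19 other loci, 1 was lower against Y-A and 2 against Y-E (background 3.61% and 8.68%), and 0 were higher. EMC3, a subunit of the membrane protein insertase of the endoplasmic reticulum, was lower in pregnancy, at 69.9 to 110 CPM against 107 to 154 in Y-A and 110 to 159 in Y-E, with log2 fold changes of −0.54 ± 0.14 (adjusted p = 0.0279) and −0.60 ± 0.14 (adjusted p = 0.00666). It carries the ribosome annotation although it is not known as a ribosomal protein. A second such locus (ENSBGRG00000015272) was lower against Y-E alone, at −0.43 ± 0.13 (adjusted p = 0.0387). EMC3 and the second locus were named after their values were seen.

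Genes around the ribosome were read from lists written from general knowledge, and their counts stand beside backgrounds of 5.77% higher against Y-E and 2.22% against Y-A, or 11.0% and 7.97% with the ratio term. Of 13 tested ribosomal proteins mutated in Diamond-Blackfan anemia, 2 were higher in Y-P against Y-A and the same number against Y-E, the RPL5 group and RPL15 in both, and with the ratio term 11 and 12. Of 11 further genes listed as having TOP messenger RNAs, most of them translation factors, 3 were higher against Y-E and 0 against Y-A (3 at an unadjusted p under 0.05). They were EIF3H (0.53, adjusted p = 0.0112) and EIF3E (0.59, adjusted p = 0.0259), both subunits of initiation factor eIF3, and HNRNPA1 (0.43, adjusted p = 0.0296). All 11 were above 0 in both comparisons, with medians of 0.40 and 0.28. Of 6 chaperones dedicated to ribosomal proteins, 3 were higher against Y-E: BCCIP (0.54, adjusted p = 0.00825), which guards RPL23, PDCD2L (0.90, adjusted p = 0.0115), which accompanies small subunit precursors, and HEATR3 (0.38, adjusted p = 0.0342), which brings RPL5 to the nucleus.

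Other lists showed no call or few calls, beside the same backgrounds of 5.77% against Y-E and 2.22% against Y-A. The 10 tested genes of mTORC1 and its targets and the 9 of ribosome rescue had 0 calls against Y-A and Y-E, with medians of at most 0.10 and with 3 and 2 at an unadjusted p under 0.05 against Y-E. Of 10 mitochondrial translation factors, MTIF3 (0.44, adjusted p = 0.00683), an initiation factor, MTRF1L (0.46, adjusted p = 0.0150), a release factor, and MTFMT (0.48, adjusted p = 0.0289), which formylates the initiator tRNA, were higher against Y-E, and MTIF3 (0.35, adjusted p = 0.0458) alone against Y-A. None of the 3 mitochondrial ribosome subunits without MRP names was called, with 1 at an unadjusted p under 0.05 against Y-E. The 31 MRP-named genes outside the KEGG pathway gave 4 calls against Y-E (MRPL39, 0.46; MRPS23, 0.59; MRPS31, 0.47; MRPL47, 0.53) and 2 against Y-A (MRPS26, 1.04; MRPL58, 0.61), with medians of 0.24 and 0.21.

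Markers of blood cell types moved with the stages too. The summed CPM of 10 T cell markers lay at 1579 to 1779 in Y-A, 1613 to 1862 in Y-E and 1925 to 2922 in Y-P, so that pregnancy stood wholly above both other stages. Of the 10, 6 were higher against Y-E and 5 against Y-A (background 5.77% and 2.22% higher). Y-P replicates 5, 2 and 3, which had the highest shares of leading rows, were also the highest in T cell markers, at 2922, 2669 and 2302 CPM. Neutrophil markers summed to 3710 to 9336 CPM in Y-A, 4752 to 12559 in Y-E and 2686 to 5977 in Y-P. Of the 7 tested, 6 were lower against Y-E and 1 against Y-A (background 8.68% and 3.61% lower). Y-P replicate 3, with the highest share of leading rows, also had the highest neutrophil sum of pregnancy (5977 CPM). Y-A replicate 6 (3710 CPM) and Y-E replicate 6 (4752 CPM), with the lowest shares of leading rows, had the lowest neutrophil sums of their stages. Reticulocyte markers summed to 458 to 11084 CPM in Y-A, up to 4697 in Y-E and 47.4 to 139 in Y-P, and platelet markers to 263 to 351, 228 to 370 and 140 to 196 CPM, with GP1BB at 3 counts or fewer in every library. B cell markers (832 to 2414, 714 to 2124 and 940 to 2611 CPM), monocyte markers (592 to 979, 509 to 1107 and 383 to 810 CPM) and NK cell markers (123 to 273, 121 to 312 and 181 to 292 CPM) overlapped between all stages. In B cell markers, Y-P replicates 3 and 2 were the highest of pregnancy (2611 and 1892 CPM). Y-P replicate 5 (1516 CPM) lay below Y-P replicates 1 (1861 CPM) and 4 (1660 CPM). The part of these cell types in the differences of ribosomal protein genes was not tested.

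The count limit that defines membership ran through very weak rows. The last row inside it, ENSBGRG00000019195 of the FAU group, reached 10 counts in 6 libraries, 4 of Y-A and 2 of Y-P. Just outside stood 3 rows that reached it in 5 libraries, ENSBGRG00000003721 and ENSBGRG00000004758 of the RPL17 group and ENSBGRG00000003753 of the RPL21 group. Of the 242 kept rows, 201 had at least 10 counts in all 18 libraries, and 1 kept row was not tested because it did not pass edgeR's own filter on low counts.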

How the data were processed

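Polyadenylated RNA of whole blood was sequenced as paired reads in 18 libraries, 6 of each stage. According to the methods, the authors trimmed reads with Cutadapt (version 1.9 per the submitters' processing notes), aligned them with HISAT2 (2.2.1), assembled transcripts with StringTie (2.1.6) and gffcompare, and took FPKM values from StringTie and ballgown, deposited as a table of genes by library. Whole-number counts without normalization were deposited by the authors beside them. How the count columns were made, and whether they used the strand, is not given in the sources used here. The table further holds the KEGG annotation that defined the members. No sequences are shown, since no genome of these identifiers was used here. Libraries were assigned to stages by the sample labels, and 0 columns were left out.

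Tests on the counts used edgeR 4.0.16 under R 4.3.3 (TMM factors, filterByExpr, quasi-likelihood fit with stage over all 18 libraries, two-sided, Benjamini-Hochberg adjustment over 14508 genes), with 0.05 as the threshold for a call. All adjusted p-values in the text are from edgeR's quasi-likelihood test. The SE beside a log2 fold change is its absolute value divided by the square root of that test's F statistic. It is therefore approximate, above all for rows with few counts. Exon lengths were derived from the deposited counts and FPKM. The smallest library held 30247267 counts, but the counting error of a row depends on the counts of that row. The co-expression network of the study used fewer libraries than are analysed here, and the expression table published with it, as read here, has no column for Y-E replicate 6, so values without that library are given too. Alternatives used DESeq2 1.42.0, limma 3.58.1 on log2(FPKM + 1) and log2(FPKM + 0.1), other scalings and filters, a replicate block and single libraries left out. The terms and subsets by count-to-FPKM ratio were chosen after seeing the data. On simulated counts of 14508 genes for Y-P against Y-A, 74% of 100 genes changed by 1 on the log2 scale and 98% of 100 changed by 2 were recovered, with 3 false calls. Each gene was drawn separately, without shifts shared by the genes of a library and without the count-to-FPKM difference. No changed gene moved by less than 1. The simulation therefore cannot show how smaller changes of genes that move together, as the leading rows do, are called.

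The members and lists were chosen with earlier results of these data known. Named members were the 5 highest and 3 lowest by FPKM in each ribosome, the 5 called in each direction with the smallest p (or the 2 smallest p where none was called), the stalk, fusion and paralog lists, the rows nearest to the count limit, and up to 4 called genes of each other list. Exceptions are marked where they occur, and some members that this rule names are not reported here.

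For the replicate block, replicate numbers were taken as marking the cows, since the methods describe the same 6 cows at each stage. The labels do not say so, and the main fit has no such term. Deviations from the stage mean correlated between equal numbers at 0.112 to 0.653 (estrus with anestrus), −0.0715 to 0.484 (pregnancy with anestrus) and −0.0819 to 0.492 (pregnancy with estrus), above 0.1 in 6, 4 and 4 of 6 pairs. The best correlation was with the equal number in 5, 3 and 3 of 6 cases, so the values do not settle the pairing. Python 3.11.15, pandas 2.3.3, numpy 2.4.6 and matplotlib 3.10.9 were used for summaries and figures.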

Additional observations from a re-analysis of the deposited data

Results flagged for a closer look

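Of the named members, 9 levels stood apart within their stage by Dixon's criterion (a wide gap to the nearest library relative to the range), among 114 groups of 6 libraries examined. Chance alone would flag about 1 in 20 groups, and no cause was tested. Y-A replicate 6 lay below the other anestrus libraries in 4 leading or further rows, with 527 CPM for the RPLP1 group (ENSBGRG00000020068), 54.9 CPM for the FAU group (ENSBGRG00000026230), 16.5 CPM for RSL24D1 and 934 CPM for the row described as RPL10L (ENSBGRG00000023896). Y-E replicate 6 lay above the other estrus libraries at 15.6 CPM for a row of the RPL9 group (ENSBGRG00000022832). Both of these libraries had the lower count-to-FPKM ratio. MRPS10 reached 33.7 CPM in Y-E replicate 1 and MRPL18 21.3 CPM in Y-E replicate 3, each above the other estrus libraries. Y-P replicate 2 was apart in 2 weak rows, at 1.38 CPM for ENSBGRG00000013699 of the RPS15A group and 3.16 CPM for ENSBGRG00000019195 of the FAU group.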

How the results depend on the processing

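Calls of cytosolic members, out of a main count of 6 against Y-A and 26 against Y-E, came to 15 with DESeq2 against Y-A, to 18 and 41 by library size alone, to 26 and 44 with limma on log2(FPKM + 1) and equally on log2(FPKM + 0.1), and to 2 with only the libraries of Y-P and Y-A fitted. Calls of leading rows, 2 and 14 in the main fit, came to 6 with DESeq2, 10 by library size and 0 with only 2 stages, all against Y-A, and to 11 and 22 with either limma fit. Mitochondrial calls, 1 and 1 in the main fit, came to 2 with DESeq2 against Y-E, to 3 and 4 by library size, to 6 and 8 with either limma fit, and to 0 against Y-A without a count filter or with only 2 stages. Over all genes, calls in either direction against Y-A and Y-E rose too, from 5.83% and 14.4% in the main fit. They came to 10.26% and 19.02% with DESeq2, 9.19% and 17.6% by library size, and 14.6% and 21.2% with limma on log2(FPKM + 1). Against Y-A, the cytosolic shares in that order were near or below these, at 8.43%, 10.1% and 14.6%. Against Y-E they were 18.5%, 23.03% and 24.7%, and the mitochondrial shares 6.9%, 13.8% and 27.6%. No Y-E against Y-A count changed from 0 in any alternative. Leaving out 1 library gave 0 to 14 and 15 to 37 cytosolic calls, 0 to 8 and 8 to 20 leading rows, and 0 to 1 and 1 to 3 mitochondrial calls. As shares of summed FPKM, the cytosolic medians of Y-A, Y-E and Y-P were 10.5%, 9.11% and 10.7%, and the mitochondrial ones 0.0728%, 0.0769% and 0.0945%.

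With a term for the count-to-FPKM ratio, calls against Y-A and Y-E were 83 and 113 cytosolic, 55 and 71 leading and 7 and 10 mitochondrial. Over all genes tested, 7.97% and 11.0% were higher and 9.66% and 12.5% lower in that fit. With that term and library size scaling the calls were 106 and 122, 68 and 72, and 14 and 20. No share over all genes is given here for that fit, so these counts are not read as particular to the members. The Y-P against Y-A medians were then 0.78 (cytosolic) and 0.51 (mitochondrial). Within the 12 libraries of the higher ratio the calls were 93 and 115, 62 and 71, and 8 and 15, with mitochondrial medians of 0.52 and 0.61 (background 5.31% and 8.21% higher). Within the 6 of the lower ratio they were 0 throughout, and the mitochondrial median of Y-E against Y-A was 0.064. Leaving out 1 library from the fit with the term gave 40 to 96 and 86 to 119 cytosolic, 31 to 63 and 57 to 72 leading, and 0 to 9 and 3 to 14 mitochondrial calls. Some named members that were lower against Y-A in the main fit were higher with the term and library size scaling and within the higher ratio: MRPL12 (0.51 and 0.54), ENSBGRG00000015836 (0.62 and 0.72) and ENSBGRG00000015893 (0.60 and 0.72). The cause was not tested.

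With the replicate block, which pairs libraries by replicate number, leading rows called were 3 against Y-A and 17 against Y-E, all higher. These were 4.0% and 22.7% of the 75, against 3.32% and 7.22% higher over all genes in that fit. The share against Y-A was thus near the background. The mitochondrial call against Y-A was lost (0, also without Y-E replicate 6). The block with the ratio term gave 16 and 83 cytosolic, 10 and 57 leading, and 0 and 3 mitochondrial calls. The share over all genes tested is not given here for that fit. Of the leading rows 74 of 75, and of the further rows 72 of 104, reached 10 counts in all 18 libraries, and the values of the others rest on few counts, as do those of MRPL36. The effect of depth was not tested.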
